A study of Mus musculus with 30 samples.

Results

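The genes described here are 9 members of the TGF-β pathway and its fibrotic targets: the ligands Tgfb1, Tgfb2 and Tgfb3, the receptors Tgfbr1 and Tgfbr3, the latency protein gene Ltbp1, the activator and target gene Thbs1, the inhibitor Smad7 and the target Ctgf (now Ccn2). They were taken by gene symbol from the aortic and renal count tables, in which all 9 were found among 41128 genes, and all 9 passed the low count filter in both tissues.

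TGF-β ligands are made as latent complexes that are bound to latent TGF-β binding proteins such as LTBP1 in the extracellular matrix and have to be released, for example by integrins or thrombospondin-1. The free ligand assembles type I and type II receptors, with betaglycan (the product of Tgfbr3) presenting it, and the type I receptor phosphorylates SMAD2 and SMAD3, which move to the nucleus with SMAD4. SMAD7 is induced by the signal and blocks the receptor, while connective tissue growth factor (Ctgf) and matrix genes are long-known targets. In the vessel wall the pathway is known for its role in smooth muscle differentiation and matrix deposition, and in the kidney for fibrosis.

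RNA was sequenced from 14 aortae and 16 kidneys of male mice labelled C57Bl6J in 4 groups per tissue, WT or KO on a standard-fat diet (SFD) or high-fat diet (HFD). The line was a cross of floxed Egfr mice on C57BL/6 with Smmhc-Cre mice on C57BL/6N. In KO mice, both Egfr alleles were floxed and a tamoxifen-activated Cre recombinase on the Y chromosome, driven by the smooth muscle promoter Smmhc (Myh11), deleted Egfr in vascular smooth muscle cells, whereas WT mice had the same Cre and no loxP sites. Every mouse received 1 mg tamoxifen per day on 5 days, the diet began 7 days later at 6 weeks of age and lasted 18 weeks, and the groups held 3 WT-SFD, 4 WT-HFD, 3 KO-SFD and 4 KO-HFD aortae and 4 kidneys each. The labels hold fewer SFD aortae than the study describes, and others were not analysed here. Library totals were 6403699 to 13052870 counts in the aorta and 16354880 to 28331314 in the kidney, and 3 mice gave both tissues. Values are counts per 1000000 counts after TMM scaling (FPM), and mice are numbered within their group and tissue.

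Egfr, the targeted gene, checked the labels of the aortae. In WT-SFD aortae it had 46.7, 39.5 and 54.3 FPM, in WT-HFD 65.1, 57.0, 51.2 and 57.0, in KO-SFD 26.8, 35.5 and 28.0, and in KO-HFD 27.5, 40.6, 39.7 and 33.4. All KO aortae were below all WT aortae on the same diet, and over both diets Egfr fell by 0.67 on the log2 scale (SE 0.11, edgeR adjusted p = 0.0132). Whole kidneys, in which few cells express Smmhc, had 36.9 to 60.8 FPM, with a fitted difference between KO and WT of -0.00 (SE 0.09), so Egfr does not check the genotype there. The counts cover the whole gene, and other cell types of the wall also transcribe it.

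Markers of the labelled tissues were present. The 6 smooth muscle markers summed to 9124 to 17178 FPM in the aortae, led by Acta2 with 4226 to 8719 FPM, although Tagln and Cnn1 are listed at 0 in every library of both tissues. In the kidneys the 5 proximal tubule markers summed to 8768 to 15173 FPM, led by Slc34a1. The aortae differed in fat: the 8 adipocyte markers summed to 2890, 2225 and 81.8 FPM in WT-SFD mice 1 to 3 and to 1848, 654 and 88.2 FPM in KO-SFD mice 1 to 3. They summed to 91.2 to 169 FPM in WT-HFD and 48.7 to 125 FPM in KO-HFD aortae. Fabp4 was the most abundant of them, at 1238 FPM in WT-SFD mouse 1, and none of the 8 was at 0. The 4 cardiac muscle markers reached 320 FPM in WT-SFD mouse 2 and 52.0 FPM in KO-SFD mouse 2, against 4.06 to 18.4 FPM in the other aortae. In whole tissue, fewer cells of a type and less RNA per cell cannot be told apart.

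The members were ranked per kilobase of exon (FPKM, from the FPM and the union of exons in GENCODE vM21). In the aorta Ctgf was highest with 133 ± 45.0 FPKM (SD, n = 14), followed by Ltbp1 (60.7 ± 12.2), Tgfb3 (33.9 ± 4.83), Smad7 (23.6 ± 6.58), Tgfbr1 (17.5 ± 3.44), Tgfbr3 (16.2 ± 2.97), Thbs1 (12.5 ± 5.44), Tgfb2 (11.8 ± 2.65) and Tgfb1 (5.58 ± 0.909). Tgfb1 was the lowest member in each of the 14 aortae, and Ctgf was above Ltbp1, and Ltbp1 above Tgfb3, in all 14. Tgfbr1 was above Tgfbr3 in only 9 of 14, so those neighbours did not differ beyond their spread. The place of Thbs1 went with the genotype, since it was above Tgfb2 in 0 of 7 WT and 6 of 7 KO aortae. In the kidney the order was Ctgf (13.7 ± 2.89, n = 16), Smad7 (11.0 ± 1.52), Thbs1 (8.93 ± 2.91), Tgfbr3 (5.50 ± 1.71), Tgfbr1 (5.49 ± 0.575), Tgfb1 (3.99 ± 0.367), Ltbp1 (2.11 ± 0.651), Tgfb3 (0.706 ± 0.198) and Tgfb2 (0.350 ± 0.0711). Smad7 exceeded Thbs1 in 10 of 16 kidneys and Tgfbr3 exceeded Tgfbr1 in 8 of 16, and each member from Tgfbr1 downward exceeded the next one in all 16. The mean level in the aorta was 48.0 times that in the kidney for Tgfb3, 33.8 times for Tgfb2, 28.8 times for Ltbp1 and 9.68 times for Ctgf, but 1.399 times for Tgfb1 and 1.404 times for Thbs1. In the 3 mice that gave both tissues the ratio within a mouse was 50.8 to 55.8 for Tgfb3, 22.2 to 32.3 for Tgfb2, 16.1 to 27.6 for Ltbp1, 4.81 to 9.30 for Ctgf, 1.18 to 1.64 for Tgfb1 and 0.542 to 2.39 for Thbs1. Tissue and sequencing site cannot be told apart in these ratios, and small and structural RNAs took 18.4 to 43.1% of the aortic counts against at most 0.126% of the renal ones.

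Of the 9 members, 4 have upstream sequences in the RefSeq promoter table (GRCm38.p6). The 250 bases before the annotated starts of Tgfb2, Tgfbr1 and Ltbp1 are shown because these genes rose and fell together from aorta to aorta, as described further on, and Tgfbr1 and Ltbp1 each have a pair of starts. They lie at chr1:186705990-186706239 (minus strand) for Tgfb2, chr4:47352972-47353221 and chr4:47385966-47386215 (plus) for the first and second starts of Tgfbr1, and chr17:75005279-75005528 and chr17:75178531-75178780 (plus) for the first and second starts of Ltbp1. Capitals mark the SMAD-binding letters CAGAC or, on the other strand, GTCTG.
Tgfb2: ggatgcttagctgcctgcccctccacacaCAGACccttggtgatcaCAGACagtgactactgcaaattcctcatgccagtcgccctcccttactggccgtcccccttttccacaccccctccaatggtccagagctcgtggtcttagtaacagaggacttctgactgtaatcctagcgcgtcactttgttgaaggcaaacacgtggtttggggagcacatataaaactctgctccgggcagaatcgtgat
Tgfbr1 first start: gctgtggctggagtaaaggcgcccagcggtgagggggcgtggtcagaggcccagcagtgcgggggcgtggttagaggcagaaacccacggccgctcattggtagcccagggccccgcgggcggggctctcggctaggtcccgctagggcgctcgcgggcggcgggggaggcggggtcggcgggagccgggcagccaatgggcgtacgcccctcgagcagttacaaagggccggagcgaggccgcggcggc
Tgfbr1 second start: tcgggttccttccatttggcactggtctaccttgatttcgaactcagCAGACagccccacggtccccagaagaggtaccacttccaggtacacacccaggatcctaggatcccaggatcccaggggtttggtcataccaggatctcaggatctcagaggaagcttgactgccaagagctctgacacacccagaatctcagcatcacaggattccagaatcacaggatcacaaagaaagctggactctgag
Ltbp1 first start: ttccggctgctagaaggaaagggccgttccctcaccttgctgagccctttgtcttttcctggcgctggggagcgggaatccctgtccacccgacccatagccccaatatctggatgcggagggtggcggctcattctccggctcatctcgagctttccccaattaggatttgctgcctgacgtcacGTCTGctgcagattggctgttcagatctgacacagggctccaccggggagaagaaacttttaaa
Ltbp1 second start: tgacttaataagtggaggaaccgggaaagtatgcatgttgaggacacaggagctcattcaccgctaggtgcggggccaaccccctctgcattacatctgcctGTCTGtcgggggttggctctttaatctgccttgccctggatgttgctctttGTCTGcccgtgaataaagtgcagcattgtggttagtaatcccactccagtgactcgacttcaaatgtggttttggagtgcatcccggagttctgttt
CAGAC on either strand occurred in 42.2% of all 32851 such windows in the table. It began at positions -221 and -204 before the start of Tgfb2, at -203 before the second start of Tgfbr1, at -64 before the first start of Ltbp1 and at -148 and -97 before the second, and was not found before the first start of Tgfbr1. The TEAD-binding letters GGAATG (12.6% of all windows, either strand), the AP-1 letters TGANTCA (6.75%) and the CArG box of serum response factor (1.47%) had no match in these windows. Tgfb1, the remaining member with an entry, had no match for CAGAC or for any of these letters, and its window is not shown. The GC content was 53.6% before Tgfb2, 74.8% and 52.8% before the first and second starts of Tgfbr1, and 56.8% and 50.8% before the first and second starts of Ltbp1. A match of letters is a description and not a binding site, and the counts per gene do not show which start of Tgfbr1 or Ltbp1 was used.

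None of the members passed an edgeR adjusted p of 0.05 over all genes in any of the 14 comparisons (7 per tissue), that is in 0 of 126 pairs of member and comparison. At an unadjusted p under 0.05 there were 9 pairs, and DESeq2 called 3 of the 126. The shares of all genes below are those of edgeR, and those of DESeq2 are not given here. The share of all 14796 aortic genes called at the adjusted limit was 0% for the diet in WT mice and 0% in KO mice, 3.95% averaged over genotypes, 0.0811% for KO against WT on SFD, 0.0811% on HFD, 0.196% averaged over diets and 0% for the interaction. Of the 15034 renal genes it was 0.964%, 2.39% and 4.62% for the diet in WT mice, KO mice and averaged, 0.0133% for KO against WT on SFD, 0% on HFD, 0.0133% averaged and 0% for the interaction. At an unadjusted p under 0.05 the aorta held 1 of 9 members for the diet in WT (17% of all genes), 1 in KO (7.85%) and 1 averaged (18.8%). It also held 1 for the genotype on SFD (6.54%), 1 on HFD (5.35%) and 1 averaged (7.17%), and 0 for the interaction (4.37%). The kidney held 0 for the diet in WT (8.05%), 2 in KO (16.1%) and 1 averaged (18.2%), and 0 for the genotype on SFD (8.69%), on HFD (1.75%), averaged (5.93%) and for the interaction (3.35%). Comparisons that share a control group are not independent of each other.

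**Figure D1:**
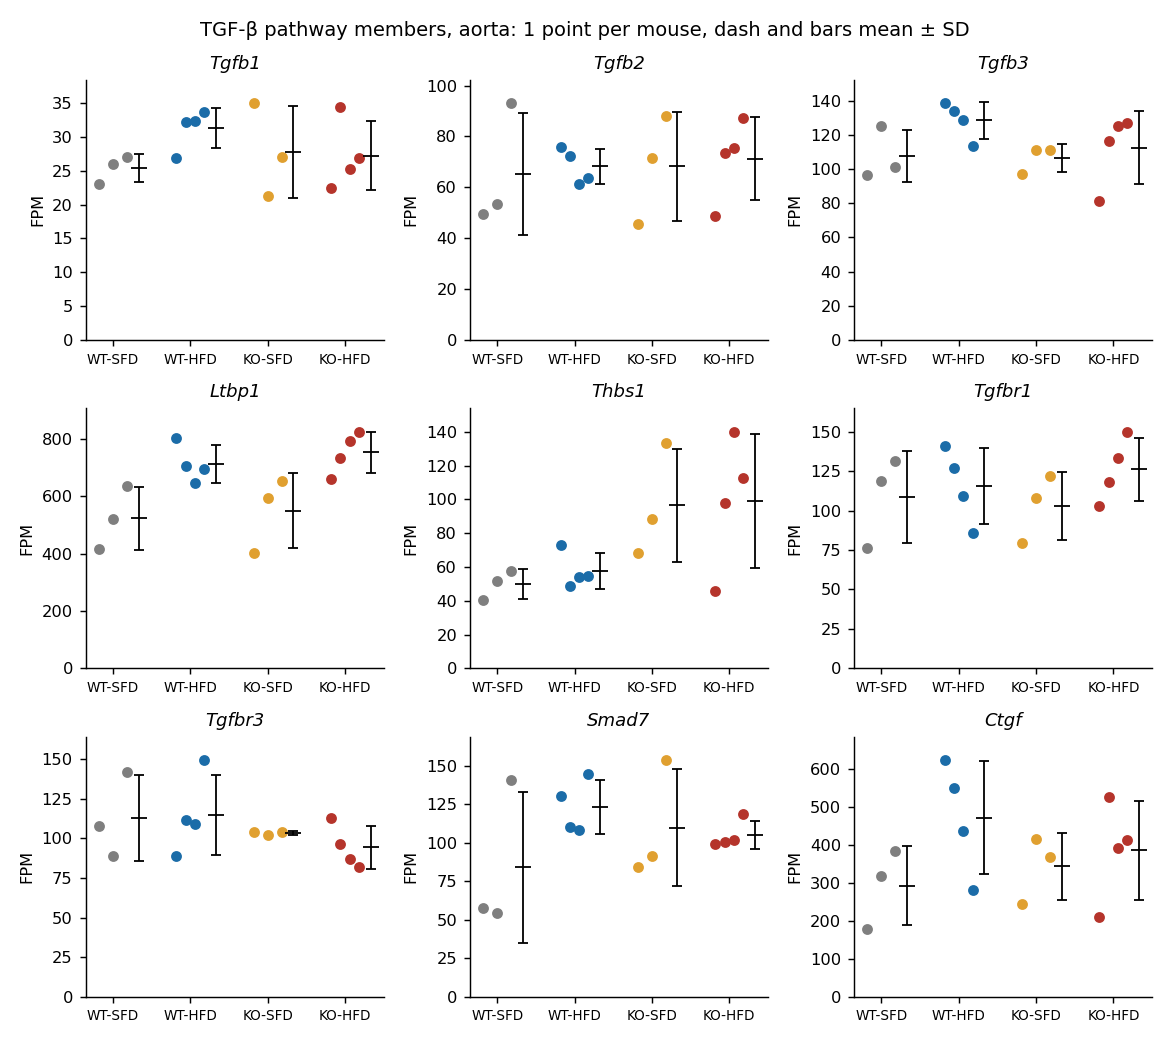
FPM (vertical axis, linear from 0) of the 9 members in the 14 aortae by group, 1 point per mouse, with the group mean and SD as a dash with bars. Ltbp1 is higher in all HFD aortae (647 to 824 FPM) than in the SFD aortae of the same genotype, and Thbs1 is at 40.7 to 73.1 FPM in WT but 45.9 to 140.0 FPM in KO.

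Ltbp1, which tethers latent TGF-β to the matrix, was higher in HFD aortae of both genotypes. It had 415, 521 and 635 FPM in WT-SFD, 802, 704, 647 and 696 FPM in WT-HFD, 402, 594 and 654 FPM in KO-SFD and 662, 733, 794 and 824 FPM in KO-HFD aortae. Within each genotype the diets did not overlap, although the highest SFD aorta and the lowest HFD aorta differed by few FPM. The difference was 0.44 on the log2 scale in WT (SE 0.17, adjusted p = 0.193) and 0.45 in KO (SE 0.17, adjusted p = 0.558). Averaged over genotypes it was 1.36-fold (log2 0.45, SE 0.12, 95% interval 0.19 to 0.71, adjusted p = 0.0524), and the interaction was 0.01 (interval -0.50 to 0.52). The groups did not overlap for 1 of 9 members in WT and 1 of 9 in KO, both times Ltbp1, against 8.96% and 7.04% of all genes.

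The 4 aortae lowest in Ltbp1 were those with most adipocyte transcripts, and 3 of them had the lowest smooth muscle sums. For HFD against SFD averaged over genotypes, 7 of the 8 adipocyte markers fell (median -3.51) and the 4 smooth muscle markers with counts lay above 0 (median 0.28, 2 of them at an unadjusted p under 0.05, 0 adjusted). The smooth muscle markers summed to 9124, 11720.1 and 14454 FPM in WT-SFD and 10216, 15535 and 15978 FPM in KO-SFD mice 1 to 3, and to 14291 to 17178 FPM in the HFD aortae. The mean log2 level of the endothelial markers was 6.55 in WT-SFD, 6.10 in WT-HFD, 6.35 in KO-SFD and 5.81 in KO-HFD aortae. That of the fibroblast markers was 6.98, 7.35, 7.23 and 7.41 in the same order. The sums of both lists overlapped between the diets, and the part of these cells in the Ltbp1 difference was not tested. The 4 aortae with a mean of the 8 adipocyte markers above 4 on the log2 FPM scale (WT-SFD mice 1 and 2, KO-SFD mice 1 and 2) had 402 to 594 FPM of Ltbp1, and the other SFD aortae had 635 and 654 FPM. With the mean of the adipocyte and brown adipocyte markers as a covariate the averaged diet difference of Ltbp1 was 0.22 (adjusted p = 0.823). Without those 4 aortae, a fit in which each SFD group is left with 1 mouse assumed to vary like the others, it was 0.19 (adjusted p = 0.855). The latter fit was chosen after the data had been seen.

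Thbs1, whose product thrombospondin-1 releases TGF-β from its latent complex and is itself induced by TGF-β, was higher in KO than in WT aortae. It had 40.7, 51.6 and 57.9 FPM in WT-SFD, 73.1, 48.7, 53.9 and 54.5 FPM in WT-HFD, 68.2, 88.2 and 133 FPM in KO-SFD and 45.9, 97.9, 140.0 and 113 FPM in KO-HFD aortae. All KO aortae but 1, KO-HFD mouse 1 with 45.9 FPM, lay above the WT aortae on the same diet. The fitted difference was 0.95 on SFD (SE 0.32, adjusted p = 0.708) and 0.78 on HFD (SE 0.27, adjusted p = 0.760). Averaged over diets it was 1.82-fold (log2 0.87, SE 0.21, interval 0.42 to 1.32, adjusted p = 0.250). The groups did not overlap for 1 of 9 members on SFD, against 8.57% of all genes, and for 0 of 9 on HFD, against 4.18%. Without KO-HFD mouse 1 the averaged difference was 1.00 with an adjusted p of 0.0134, and with the adipocyte covariate it was 0.78 (adjusted p = 0.148). Of 8 leucocyte markers 7 had counts and Cd3e was at 0. For KO against WT they lay above 0 in 7 of 7 on SFD (median 0.65, 4 at an unadjusted p under 0.05) and in 5 of 7 on HFD (median 0.19, 0 at that limit), and 0 passed the adjustment. The mean log2 level of the markers was 3.90 in KO-SFD and 2.92 in WT-SFD, but 3.20 in KO-HFD and 3.23 in WT-HFD aortae. They summed to 99.7, 98.2 and 106 FPM in WT-SFD, 170.2, 105, 97.7 and 100.4 FPM in WT-HFD, 220.0, 156 and 151 FPM in KO-SFD and 85.3, 221, 111 and 103 FPM in KO-HFD aortae, led by Lyz2, a macrophage and neutrophil lysozyme gene. KO-HFD mouse 1 was the lowest KO aorta for both Thbs1 and this sum, but the other KO aortae did not keep the same order. In KO-SFD, mouse 3 had the highest Thbs1 (133 FPM) and the lowest sum (151 FPM). In KO-HFD, mouse 2 had the highest sum (221 FPM) and less Thbs1 (97.9 FPM) than mice 3 and 4. The 4 mesangium and pericyte markers, led by Rgs5, summed to 1647 to 1935 FPM in WT-SFD and 2090 to 3161 FPM in KO-SFD aortae. On HFD these sums were 1973 to 2445 FPM in WT and 2803 to 3542 FPM in KO aortae. The mean log2 level of these markers was 7.06 in WT-SFD, 7.39 in KO-SFD, 7.23 in WT-HFD and 7.24 in KO-HFD aortae. The part of the leucocytes and pericytes in the Thbs1 difference was not tested. RNA composition also went with the genotype in part: small and structural RNAs took 28.4 to 43.1% of the counts in WT aortae, 29.6, 20.8 and 20.5% in KO-SFD and 18.4, 29.4, 30.9 and 29.7% in KO-HFD aortae, with KO-HFD mouse 1 the lowest. With protein-coding genes only the averaged Thbs1 difference was 0.88 (adjusted p = 0.353).

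The ligands did not separate the groups in the aorta. Tgfb1 averaged 25.4 ± 2.05 FPM in WT-SFD (SD, n = 3), 31.3 ± 2.995 in WT-HFD (n = 4), 27.8 ± 6.85 in KO-SFD (n = 3) and 27.3 ± 5.09 in KO-HFD (n = 4). Tgfb2 averaged 65.4 ± 24.0, 68.3 ± 6.93, 68.3 ± 21.4 and 71.2 ± 16.2 FPM in the same order, and Tgfb3 averaged 108 ± 15.4, 129 ± 10.9, 106 ± 8.20 and 112 ± 21.3 FPM. The averaged diet difference was 0.14 for Tgfb1 (interval -0.12 to 0.39), 0.06 for Tgfb2 (-0.31 to 0.43) and 0.17 for Tgfb3 (-0.05 to 0.39). Averaged KO against WT differences were -0.03, 0.06 and -0.10, with intervals from -0.32 to 0.43 over the ligands. Tgfb3 overlaps the exons or introns of Ttll5 on the other strand, Tgfb2 those of Gm29491 and Gm26169, Ctgf those of Gm15270, Tgfbr3 those of Gm8145, Thbs1 those of Gm29233 and Egfr those of Egfros, and since the strand setting of the counting is not given in the sources used here, reads of such pairs cannot be told apart.

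The receptors, the inhibitor and Ctgf also overlapped between groups in the aorta. Tgfbr1, the type I receptor, ranged from 76.0 to 149.9 FPM over the 14 aortae, and its averaged differences were 0.19 for the diet (interval -0.12 to 0.50) and 0.02 for the genotype (-0.29 to 0.34). Tgfbr3 was the one member with a negative averaged diet difference (-0.05, interval -0.32 to 0.21), and its genotype difference was -0.20 (-0.47 to 0.06). Smad7 had 57.3, 54.0 and 141 FPM in WT-SFD, 129.96, 109.8, 108 and 144 FPM in WT-HFD, 84.4, 91.5 and 153 FPM in KO-SFD and 98.9, 100.5, 101.5 and 118 FPM in KO-HFD aortae. The low Smad7 values were those of WT-SFD mice 1 and 2, the aortae with the highest adipocyte sums (r = -0.91 with the adipocyte mean within groups, rho = -0.82, permutation p adjusted = 0.0848). The diet difference of Smad7 in WT was 0.55 (SE 0.28, adjusted p = 0.343) with all mice, and 1.15 (adjusted p = 0.00185) without WT-SFD mouse 3. The latter fit keeps only WT-SFD mice 1 and 2, both rich in adipocyte markers, so diet and fat cannot be told apart in it. Ctgf had 178, 317 and 383 FPM in WT-SFD, 622, 548, 435 and 279.5 FPM in WT-HFD, 245, 415 and 368 FPM in KO-SFD and 209.6, 525, 391 and 413 FPM in KO-HFD aortae. Its averaged diet difference was 0.43 (SE 0.23, adjusted p = 0.339), and its highest aorta had 3.498 times its lowest. Over the 9 members the median averaged diet difference was 0.17, against -0.00 over all genes tested, and 8 of 9 were above 0, against 49.1% of all genes. With the adipocyte covariate the median was -0.07 and 4 of 9 were above 0, and without the 4 aortae rich in adipocyte markers it was again -0.07 with 4 of 9. The median and share of all genes in these fits are not given here, so the fall from 8 of 9 is not read as a result about the members. Leaving out single aortae moved the averaged median from 0.11 (without WT-SFD mouse 1) to 0.27 (without KO-SFD mouse 3). Within WT the median diet difference was 0.26, with 9 of 9 above 0 (48.3% of all genes). Within KO it was 0.06, with 6 of 9 (49.7%). Members that covary, as described further on, do not give independent signs. For KO against WT averaged over diets the median was 0.02, against -0.01 over all genes, and 5 of 9 were above 0, against 46.8%. This count was 2 of 9 with the adipocyte covariate (median -0.04) and 8 of 9 with library totals, against 79.3% of all genes. Leaving out single aortae gave 2 of 9 (without WT-SFD mouse 1 or KO-SFD mouse 3) to 7 of 9 (without KO-HFD mouse 1). For the covariate fit and the fits without single aortae, the share of all genes above 0 is not given here.

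**Figure D2:**
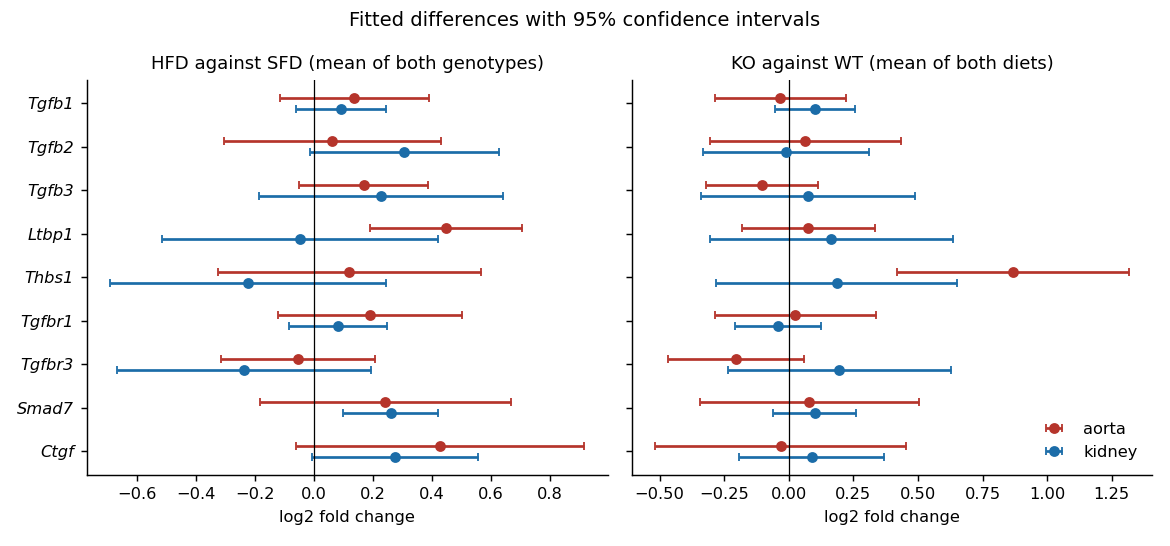
Fitted log2 fold changes (horizontal axis) of the 9 members with 95% confidence intervals, for HFD against SFD averaged over genotypes (left) and KO against WT averaged over diets (right), in aorta and kidney. The intervals of aortic Ltbp1 (0.19 to 0.71) and renal Smad7 (0.10 to 0.42) for the diet and of aortic Thbs1 (0.42 to 1.32) for the genotype lie wholly above 0 before adjustment.

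**Figure D3:**
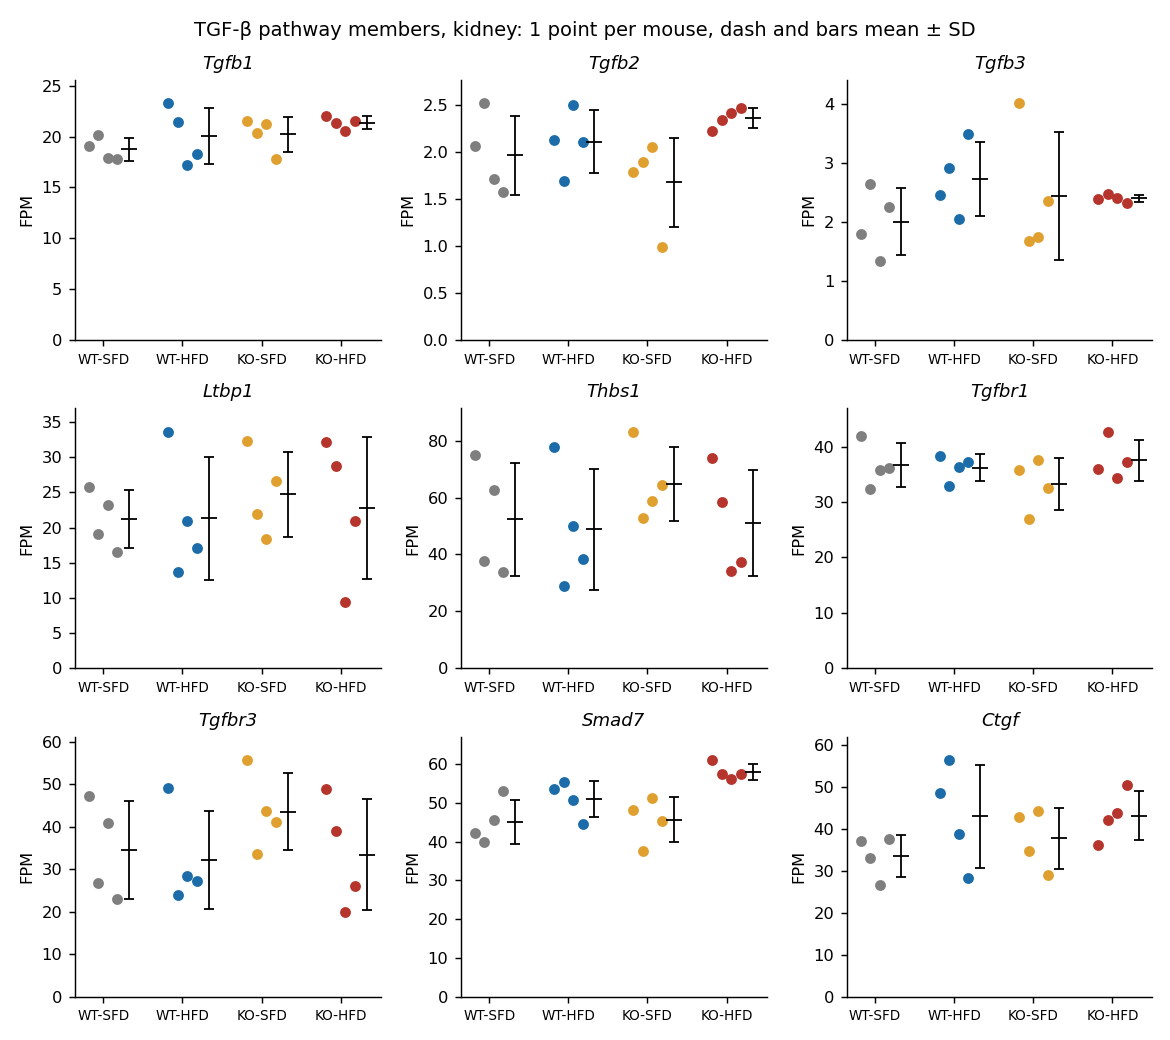
FPM (vertical axis, linear from 0) of the 9 members in the 16 kidneys by group, 1 point per mouse, with the group mean and SD as a dash with bars. Smad7 is higher in all KO-HFD kidneys (56.2 to 60.9 FPM) than in all KO-SFD kidneys (37.6 to 51.3 FPM), while Thbs1, Tgfbr3 and Ltbp1 spread widely within every group.

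In the kidney, Smad7 was higher on HFD. It had 42.2, 39.8, 45.4 and 52.9 FPM in WT-SFD, 53.5, 55.2, 50.8 and 44.5 FPM in WT-HFD, 48.1, 37.6, 51.3 and 45.4 FPM in KO-SFD and 60.9, 57.4, 56.2 and 57.5 FPM in KO-HFD kidneys. All KO-HFD kidneys were above all other kidneys, and the WT groups overlapped. The diet difference in KO was 0.35 (SE 0.11, adjusted p = 0.113), and averaged over genotypes it was 1.198-fold (log2 0.26, SE 0.08, interval 0.10 to 0.42, adjusted p = 0.0620). The interaction was 0.17 (interval -0.15 to 0.49), so a difference of the diet effect between genotypes was not shown. Segment markers differed between the diets too: averaged over genotypes, 5 of 8 medullary markers and 2 of 2 thick ascending limb markers were lower at an unadjusted p under 0.05 (medians -0.55 and -0.45) and 3 of 5 podocyte markers were higher (median 0.23), 0 of them adjusted. None of these markers was at 0, and the most abundant were Aqp2, Umod and Podxl. The medullary markers summed to 1458, 2058, 1833 and 908 FPM in WT-SFD, 1337, 1129, 996 and 1042 FPM in WT-HFD, 2128, 2089, 1384 and 2056 FPM in KO-SFD and 1749.5, 1941, 728 and 801 FPM in KO-HFD kidneys. Of the 5 proximal tubule markers, 5 lay above 0 for the diet in KO (median 0.21) and 1 in WT (median -0.10). Their mean log2 level was 10.13 in WT-SFD, 10.25 in WT-HFD, 9.88 in KO-SFD and 10.32 in KO-HFD kidneys. None of the 5 markers was at 0, and Slc34a1 was the most abundant. Their sums ran from 9720 to 13466, 9468 to 11709, 8768 to 10054 and 9884 to 15173 FPM in WT-SFD, WT-HFD, KO-SFD and KO-HFD kidneys. The podocyte markers summed to 228 to 312, 219 to 324, 173 to 214 and 207 to 305 FPM in the same groups. With the medullary mean as a covariate the averaged diet difference of Smad7 was 0.24 (adjusted p = 0.118), and the part of the podocytes and proximal tubules was not tested.

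The other member below an unadjusted p of 0.05 in KO kidneys was Tgfb2, a low gene with 18 to 54 counts per kidney. It had 1.78, 1.89, 2.04 and 0.983 FPM in KO-SFD and 2.22, 2.34, 2.41 and 2.46 FPM in KO-HFD kidneys, while WT-SFD ranged from 1.57 to 2.51 FPM and WT-HFD from 1.68 to 2.50 FPM. The KO groups did not overlap, and the difference was 0.48 (SE 0.22, adjusted p = 0.281). In all, 2 of 9 members did not overlap between the KO diets, against 8.87% of genes, and 0 of 9 between the WT diets, against 5.01%. Between KO and WT on HFD 1 of 9 members (Smad7) did not overlap, against 1.32% of genes, with a difference of 0.19 (interval -0.04 to 0.41), and on SFD 0 of 9, against 3.98%.

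The other renal members overlapped between groups. Tgfb1 was the steadiest, with 17.2 to 23.3 FPM over all 16 kidneys and averaged differences of 0.09 for the diet (interval -0.06 to 0.25) and 0.10 for the genotype (-0.05 to 0.26). Ctgf averaged 33.6 ± 5.01 FPM in WT-SFD, 42.9 ± 12.2 in WT-HFD, 37.7 ± 7.16 in KO-SFD and 43.1 ± 5.84 in KO-HFD kidneys (SD, n = 4 each), with an averaged diet difference of 0.27 (interval -0.01 to 0.56). Tgfbr1 ranged from 26.9 to 42.7 FPM and Tgfb3 from 1.34 to 4.002 FPM. The averaged diet differences over the 9 members ran from -0.24 to 0.31 with a median of 0.09, against -0.01 over all genes, and 6 of 9 were above 0, against 48.6% of all genes. With the medullary covariate the median was 0.19 and 9 of 9 were above 0. The share of all genes above 0 in that fit is not given here, so this count has no background to be set against. The averaged genotype differences ran from -0.04 to 0.20 with a median of 0.10, against 0.00 over all genes, and 7 of 9 were above 0, against 50.6%.

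Thbs1, Tgfbr3 and Ltbp1 overlapped between groups and varied widely within each. Thbs1 had 75.0, 37.8, 62.8 and 33.8 FPM in WT-SFD, 77.7, 28.8, 50.1 and 38.6 FPM in WT-HFD, 83.1, 52.8, 58.9 and 64.5 FPM in KO-SFD and 73.8, 58.5, 34.2 and 37.3 FPM in KO-HFD kidneys. Tgfbr3 had 47.4, 26.7, 40.9 and 23.1 FPM, then 49.3, 24.0, 28.5 and 27.4 FPM, then 55.7, 33.7, 43.8 and 41.2 FPM, then 48.9, 39.0, 19.9 and 26.2 FPM in the same kidneys. The kidneys high in one gene were high in the other: mouse 1 of each group had the highest value of that group for both. Ltbp1 had 25.7, 19.1, 23.2 and 16.5 FPM, then 33.6, 13.6, 20.9 and 17.2 FPM, then 32.3, 21.9, 18.3 and 26.5 FPM, then 32.2, 28.8, 9.43 and 20.9 FPM, so that KO-HFD mouse 3 was lowest and mouse 1 again highest in each group.

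Covariation was measured as the correlation of log2 FPM after the group means were removed, for all 36 pairs of members in each tissue, with permutation within groups (100000 resamples, two-sided) and Benjamini-Hochberg adjustment over the 72 pairs. In the kidney 3 pairs passed an adjusted p of 0.05, all among those 3 genes. Tgfbr3 and Thbs1 had r = 0.96 (rho = 0.97, permutation p = 1e-05, the smallest that this number of resamples can give, adjusted p = 0.00072). Ltbp1 and Thbs1 had r = 0.85 (rho = 0.89, adjusted p = 0.00144) and Tgfbr3 and Ltbp1 r = 0.88 (rho = 0.87, adjusted p = 0.00252). Leaving out the 2 kidneys farthest from the median of the first gene gave r = 0.96, 0.90 and 0.86, respectively. Without TMM factors 7 pairs passed, among them the same 3. Over all tested genes and 16 kidneys, the patterns most like Thbs1 by Pearson r were Tgfbr3 (0.96), Dsp, a desmosome gene (0.96), and Atp8b1 (0.96), and those most like Tgfbr3 were Srgap3 (0.97), Dsp (0.97) and Thbs1 (0.96).

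Segment markers of the nephron moved with these 3 genes. Thick ascending limb markers (Slc12a1, the target of furosemide, and Umod, which encodes uromodulin) summed to 2898 FPM in KO-HFD mouse 3 and to 7463 FPM in KO-SFD mouse 1, the kidneys with the lowest Tgfbr3 and with the highest Tgfbr3, and both markers were above 0 in every kidney. The mean log2 level of these markers had r = 0.82 with Tgfbr3, 0.84 with Ltbp1 and 0.77 with Thbs1 within groups (rho = 0.83, 0.83 and 0.82; permutation p = 0.00132, 0.00224 and 0.00273; adjusted p = 0.0186 each over 45 relations of members and marker lists), and r = 0.78, 0.65 and 0.82 without the 2 kidneys farthest from the marker median. For 8 medullary genes such as Slc14a2 and Fxyd4, a list drawn up after the covariation had been seen, r was 0.81, 0.86 and 0.74 (permutation p adjusted = 0.0186, 0.00405 and 0.0186). For the 5 proximal tubule markers, of which Slc34a1 had 5898 to 10573 FPM, r was -0.54, -0.66 and -0.44, and none passed the adjustment. With the medullary mean taken out, Tgfbr3 and Thbs1 still had r = 0.91 (permutation p adjusted = 0.00216), and the pairs with Ltbp1 fell to 0.60 and 0.63 (adjusted p = 0.103 and 0.131). The part of the marker levels in the group comparisons of the 3 genes was not tested.

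**Figure D4:**
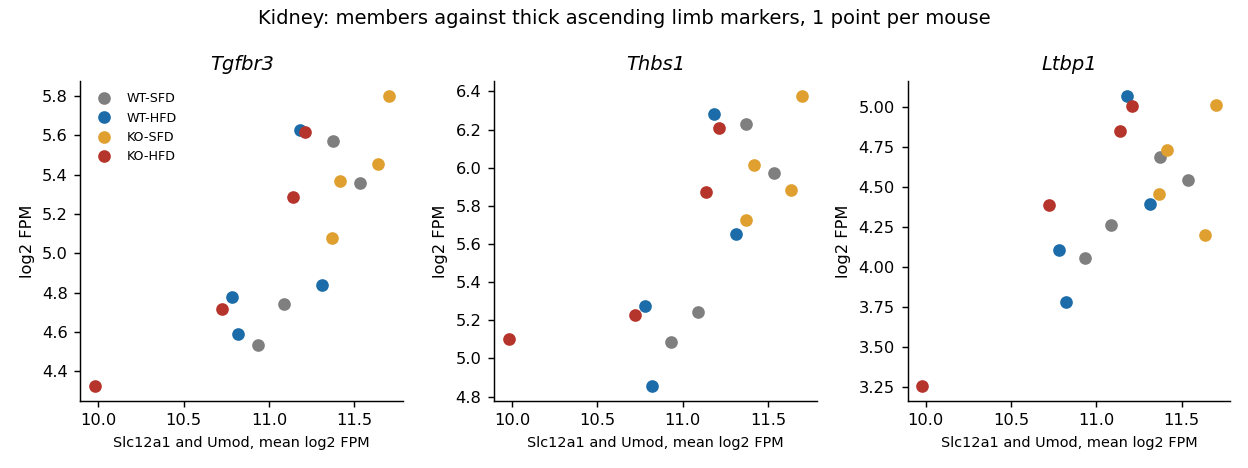
Log2 FPM of Tgfbr3, Thbs1 and Ltbp1 (vertical axes) against the mean log2 FPM of the thick ascending limb markers Slc12a1 and Umod (horizontal axes) in the 16 kidneys, coloured by group. All 3 genes climb with the markers (r = 0.82, 0.77 and 0.84 within groups), and KO-HFD mouse 3 sits at the lower left of the Tgfbr3 and Ltbp1 panels.

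In the aorta 13 of 36 pairs passed by Pearson r, 12 of them positive, and 5 of the 13 also passed by rank. The closest was Tgfb2 with Ltbp1 (r = 0.92, rho = 0.93, permutation p = 6e-05, adjusted p = 0.00144, r = 0.89 without the 2 farthest aortae). It was followed by Tgfbr1 with Ctgf (r = 0.86, adjusted p = 0.0219, but rho = 0.66 with an adjusted p of 0.129) and Tgfbr1 with Ltbp1 (r = 0.85, rho = 0.87, adjusted p = 0.0112). The negative pair was Tgfb3 with Tgfbr3 (r = -0.73, rho = -0.71, adjusted p = 0.0316 for r and 0.0789 for rho). Tgfb1 belonged to no pair, and its correlations with the other members ran from -0.28 to 0.18. The smooth muscle marker mean had r = 0.93 with Ltbp1, 0.84 with Tgfb2 and 0.77 with Tgfbr1 (rho = 0.88, 0.85 and 0.73, permutation p adjusted = 0.0186, 0.0236 and 0.0205). Without the 2 farthest aortae r was 0.74, 0.80 and 0.44, so that the relation of Tgfbr1 rests on those. The adipocyte marker mean had r = -0.79, -0.81 and -0.66 with them (permutation p adjusted = 0.116, 0.0662 and 0.156), and rho = -0.75, -0.81 and -0.71 (0.0904, 0.0427 and 0.0806), so that Tgfb2 passed by rank. After the mean of the adipocyte and brown adipocyte markers together was taken out, 12 pairs passed, 9 of them among the 13, and Tgfb2 with Ltbp1 had r = 0.78. Without the 4 aortae rich in adipocyte markers, which leaves 10 libraries of which the lone SFD mice carry no information on spread, 3 pairs passed, and Tgfb2 with Ltbp1 had r = 0.87 (adjusted p = 0.0245). Leaving out KO-HFD mouse 1 or KO-SFD mouse 1 left 2 pairs, both of them among the 13 each time.

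**Figure D5:**
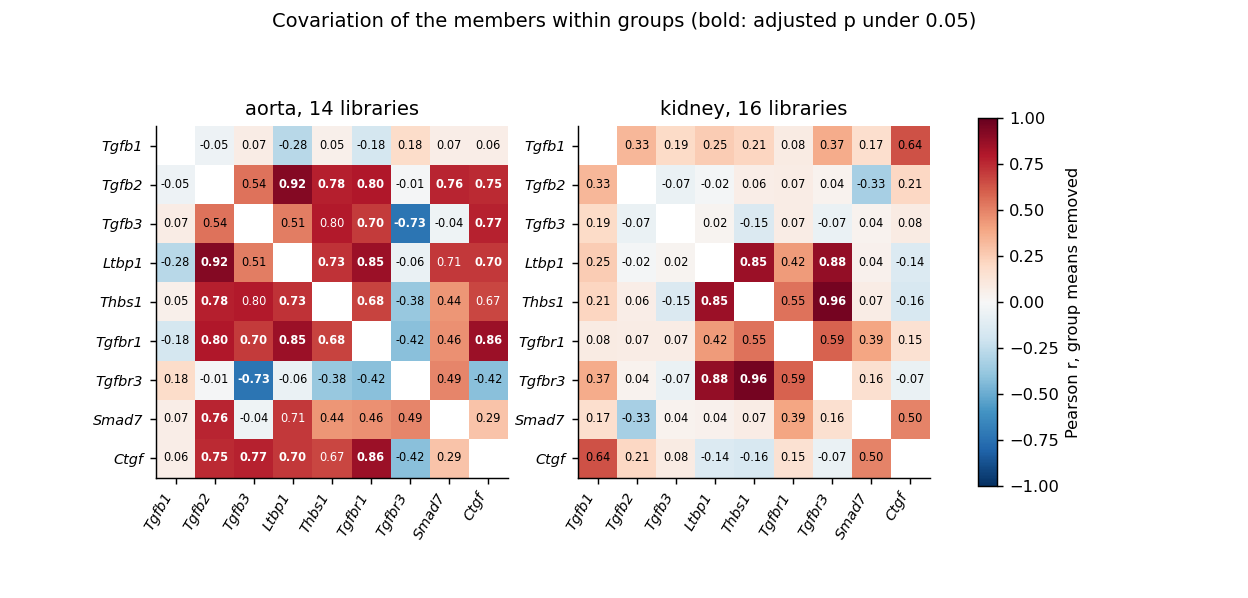
Pearson r between each 2 members over the 14 aortae (left) and 16 kidneys (right) after the group means were removed, with r printed in each cell and bold where the adjusted permutation p is under 0.05. Tgfb2, Tgfb3, Ltbp1, Tgfbr1, Thbs1 and Ctgf all have positive values with each other in the aorta, not all of them bold. In the kidney the bold cells are those among Tgfbr3, Thbs1 and Ltbp1.

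The genes most like each member over the libraries of a tissue, with group differences kept in, were these. In the aorta Ltbp1 was closest to Sec24d (r = 0.97), Npnt (0.96) and Vcl, the vinculin gene (0.96), Tgfb2 to Tmem43 (0.94), Anxa1 (0.91) and Cnn3 (0.90), and Tgfbr1 to Pdlim1, Wls (0.94 each) and Calu (0.92). Tgfb3 was closest to D17Wsu104e (0.89), Spcs3 (0.88) and Dnajb11 (0.87), Ctgf to Lsm14a, Rasl11b (0.89 each) and Hsp90b1 (0.88), and Thbs1 to Fam177a (0.89), Pabpc1 (0.87) and Prss23 (0.86). Smad7 was closest to Cygb, Fmo2 and Fkbp10 (0.91 each), Tgfbr3 to Steap3 (0.86), Lmbr1l (0.85) and Gm6225 (0.84), and Tgfb1 to Gm15982, Erp29 (0.86 each) and Hist1h2bf (0.82). In the kidney Tgfbr1 was closest to Nek9 (0.95), Trip11 and Ago3 (0.94 each), Ltbp1 to Vopp1 and Enpp4 (0.93 each), and Smad7 to Ctso (0.85), Nfic and E2f3 (0.84 each). The nearest genes of the remaining renal members were less close: Doc2b (0.79), Ramp2 (0.77) and Prkd2 (0.76) for Tgfb1 and Gm14276 (0.81), Gm26590 (0.80) and Stc1 (0.78) for Tgfb2. They were Serpini1 (0.79), Steap4 (0.75) and Mical2 (0.74) for Tgfb3, and Clk1 and Map3k9 (0.72 each) for Ctgf. These values describe 14 or 16 libraries and the best of 14795 or 15033 genes.

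The rest of the pathway was followed in 126 other genes in 7 lists, of which 106 aortic and 110 renal ones were tested. The type II receptor gene Tgfbr2, Smad3 and Smad6 are among 13 of them listed at 0 in every library, as are all genes of chromosomes 9, X, Y and MT and the last 526 genes of chromosome 8 by position, and they were not analysed here. The FPM therefore hold no mitochondrially encoded counts in their totals. The diet averaged over genotypes called, in the aorta, 1 higher and 1 lower of the 106 (1.89%, against 3.95% of all genes). Mgp, the calcification inhibitor matrix Gla protein, rose (0.50, SE 0.11, adjusted p = 0.0247) and Nedd4l, a ubiquitin ligase that limits SMAD2 and SMAD3, fell (-0.68, SE 0.15, adjusted p = 0.0258). At an unadjusted p under 0.05, 32 of 106 were higher and 5 lower, against 7.12% and 11.7% of all genes. With the adipocyte covariate 0 of 106 passed, with 2 higher and 2 lower at an unadjusted p under 0.05. DESeq2, without the covariate, called 12 higher and 1 lower. How many of all genes DESeq2 called there is not given here, so its count cannot be compared with that of edgeR. The median difference was 0.27 over 19 matrix genes, 0.38 over 12 YAP and SRF early targets, 0.24 over 15 TGF-β response genes, 0.20 over 16 latency and activation genes, 0.18 over 24 genes of the BMP and activin branch, 0.03 over 14 SMADs and regulators and 0.01 over 6 receptors, against -0.00 over all genes. Among the latency genes Itgb5, an integrin subunit (0.35, adjusted p = 0.0540), and Emilin1, which holds back TGF-β maturation (0.41, adjusted p = 0.0637), had the smallest p. Among the receptors these were Vasn (0.30, adjusted p = 0.138) and Eng (-0.27, adjusted p = 0.141), and among the BMP and activin genes the activin-binding Fstl3 (0.50, adjusted p = 0.0744) and Inhba (0.42, adjusted p = 0.0967). Among the response genes they were Ldlrad4 (0.32, adjusted p = 0.0779) and Thbs2 (0.36, adjusted p = 0.174), and among the early targets Ajuba (0.56, adjusted p = 0.0742) and Actb (0.40, adjusted p = 0.103). The adipocyte sums and the endothelial and fibroblast marker means given above differ between the same groups. Within WT aortae the diet gave 26 of 106 higher and 4 lower at an unadjusted p under 0.05, against 17% of all genes in either direction. Within KO aortae it gave 6 and 1, against 7.85%. The adjustment left 0 of 106 in WT, in KO and for the interaction. In KO against WT averaged over diets 0 of the 106 passed, 6 were higher and 3 lower at an unadjusted p under 0.05 (3.33% and 3.84% of all genes). The smallest p belonged to Mgp (0.37, adjusted p = 0.478), Thbs2 (0.44, adjusted p = 0.495), Vcan (0.40, adjusted p = 0.527) and Fn1 (0.37, adjusted p = 0.532). DESeq2 called 1 of them, Fn1, and its share of all genes is not given here.

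In the kidney the diet changed 8 of 110 listed genes when averaged over genotypes, 4 in each direction (7.27%, against 4.62% of all genes). At an unadjusted p under 0.05, 17 were higher and 11 lower, against 9.87% and 8.36% of all genes. The unadjusted differences of medullary, thick ascending limb and podocyte markers given with Smad7 are between the same groups. With the medullary mean as a covariate 5 were called higher and 4 lower, 7 of the 8 among them, and the part of the other segments was not tested. How many of all genes were called with that covariate is not given here. Of the matrix genes, Col8a1, a short-chain collagen of vessels and basement membranes, rose (2.55, SE 0.19, adjusted p = 1.16e-06), Fbln5, an elastic fibre protein, rose (0.40, adjusted p = 0.0132), and Col5a2 fell (-0.97, SE 0.13, adjusted p = 0.000218). The activin subunit gene Inhbb rose (1.02, SE 0.16, adjusted p = 0.00104) and Fstl3 fell (-0.82, SE 0.18, adjusted p = 0.0115). Pmepa1, a target that dampens SMAD signalling, rose (0.43, SE 0.08, adjusted p = 0.00394), and among the latency genes the integrin subunit gene Itgb6, which activates latent TGF-β, and the protease gene Plau fell (-0.87, adjusted p = 0.00962, and -0.54, adjusted p = 0.00631). Of these, Col8a1, Col5a2 and Inhbb were called in WT and in KO, and Plau and Pmepa1 in KO. Fbln5 and Fstl3 had the largest p of their direction and are named after their values were seen. The receptors and the response genes had 0 called of 6 and 18, and the smallest p were those of Eng (0.14, adjusted p = 0.366) and Cdkn1a (-0.46, adjusted p = 0.0827), and the early targets 0 of 11, with Ajuba at -0.31 (adjusted p = 0.113). In KO against WT averaged over diets 0 of 110 passed, with 5 higher and 0 lower at an unadjusted p under 0.05 (3.19% and 2.74% of all genes), and DESeq2 called 0. The lowest p values there belonged to Inhbb (0.57, adjusted p = 0.781) and Vasn (0.28, adjusted p = 0.822).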

How the data were processed

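The reads were trimmed with cutadapt (aorta) or by the sequencing provider (kidney). The authors aligned them to GRCm38/mm10 with TopHat, ran featureCounts, annotated genes through BiomaRt and deposited the raw counts per gene of each mouse. The strand setting is not given in the sources used here. Groups came from the labels, and all 30 columns were used. No library copied another (chi-square per gene of at least 9.22 between any 2 aortae and 9.84 between any 2 kidneys). A university facility sequenced the aortae and a commercial provider the kidneys, so each tissue had its own fit. edgeR 4.0.16 (R 4.3.3) used TMM factors, filterByExpr, and glmQLFit and glmQLFTest with all groups of a tissue. Benjamini-Hochberg adjustment of p values covered every gene tested. The step was tested on simulated data. FPM are edgeR CPM after TMM, and log2 values used a prior count of 2. Lengths came from GENCODE vM21. Permutations used numpy 2.4.6. The alternatives were DESeq2 1.42.0, RLE factors, library totals, no filter, protein-coding genes, a limit of 0.001, only the groups compared, an adipocyte covariate, and leaving out each library. The legacy quasi-likelihood test, the medullary covariate and the fit without 4 aortae were chosen after seeing the data. The members and lists were chosen with earlier results of these data known. All members are described, with full statistics for an unadjusted p under 0.05, and up to 3 listed genes per direction are named by the smallest p, or 2 per list where none passes. Replicates are single mice. For renal Ltbp1 and Ctgf, 1 of the 3 most similar genes each is not reported here.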

Additional observations from a re-analysis of the deposited data

Results flagged for a closer look

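Among 54 groups of 4 mice (9 members, 6 groups), 1 held a mouse far from the other 3, and chance alone marks about 5% of such groups. Smad7 in KO-HFD aorta mouse 4 had 118 FPM, whereas the other KO-HFD aortae had 98.9, 100.5 and 101.5 FPM, so that the gap to the nearest mouse took up 0.867 of the range of the group. Its level was nevertheless within the 108 to 144 FPM of the WT-HFD aortae.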

How the results depend on the processing

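With no member called, the question was which alternatives called any. The number of members called stayed at 0 in 324 of 337 alternative fits over the 14 comparisons, and the 9 differences with an unadjusted p under 0.05 kept their direction in all 216. For the diet effect averaged over genotypes in the aorta, 1 member (Ltbp1) passed with DESeq2, with RLE factors, without the filter and with protein-coding genes only (adjusted p 0.00739 to 0.0489), and leaving out single aortae gave 0 to 2, with 2 (Ltbp1 and Smad7) without WT-SFD mouse 3 and 1 without KO-SFD mouse 3. In WT alone, leaving out single aortae gave 0 to 2, again 2 without WT-SFD mouse 3. Mouse 3 of WT-SFD and of KO-SFD were the SFD aortae poor in adipocyte markers (sums of 81.8 and 88.2 FPM). Without either, that SFD group holds only aortae rich in these markers, so diet and fat cannot be told apart there. For KO against WT averaged over diets in the aorta, 1 member (Thbs1) passed with DESeq2 and with library totals without TMM (adjusted p 0.0160 and 0.0375), and 0 to 1 when single aortae were left out, 1 without KO-HFD mouse 1. Library totals shifted the median of all genes in that comparison to 0.17, against a difference of Thbs1 of 1.04. For the diet averaged over genotypes in the kidney, 1 member (Smad7) passed with DESeq2 (adjusted p = 0.0240), and 0 to 1 when single kidneys were left out, 1 without WT-SFD mouse 4 or without KO-SFD mouse 3. Over all its alternatives the adjusted p of the averaged difference ran from 0.00739 to 0.855 for Ltbp1, from 0.0134 to 0.568 for Thbs1 and from 0.0240 to 0.124 for Smad7. The causes were not tested, except that fewer mice or genes enter some fits by construction.

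Of pairs that covary, 13 in the aorta became 8 without centring by group and 3 without the 4 aortae rich in adipocyte markers, and 2 to 16 when single aortae were left out (7, 3 and 8 without WT-SFD mouse 1, WT-HFD mouse 1 and WT-HFD mouse 4, 2, 5 and 5 without KO-SFD mice 1, 2 and 3, and 2, 5 and 8 without KO-HFD mice 1, 3 and 4). The 3 in the kidney became 7 with library totals, 1 after the medullary mean was taken out, and 3 to 5 when single kidneys were left out, 5 without KO-HFD mouse 1. Counts of 18 to 54 limit renal Tgfb2, and the groups of 3 or 4 mice limit all differences. No paired analysis was possible because, within a tissue, each mouse is in 1 group only and the labels pair no mice between groups.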
